A study of Drosophila melanogaster with 10 samples.

Results

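The DNA replication and S phase genes described here are the genes of the deposited table whose symbols begin with Mcm, Orc, DNApol, RfC, RpA-, Rnr or Psf, together with dpa, PCNA, dup, geminin, Cdc6, CDC45L, dap, E2f, E2f2, Dp, Gnf1 and Caf1. They number 42 of the 7987 genes listed, and all 42 passed the filter on low values and were tested. The choice used symbols and no measured value, but it was made with earlier results of these data known. Orct and Orct2 entered only because their symbols begin with Orc. They encode organic cation transporters, and the other 40 genes are called the replication genes below. The symbols mus209 and E2f1 have no entry of their own in the table, because mus209 is a synonym of PCNA and E2f is an older symbol of E2f1.

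The libraries were made from RNA of wing imaginal discs of L3 Drosophila larvae of 4 genotypes that were taken between day 4 and day 5 of induction. In ap > Yki+NelfAi, called the tumorous discs, Gal4 under the apterous enhancer expressed the growth-promoting transcriptional coactivator Yki together with an RNAi construct against Nelf-A, a subunit of the negative elongation factor, which holds RNA polymerase in a pause close to the start of genes. The same driver expressed Yki alone in ap > Yki, the RNAi construct alone in ap > NelfAi and GFP alone in ap > GFP, the control. All 4 genotypes carried tubulin-Gal80ts, which delays the driver until a shift in temperature, and UAS-GFP, of which the control carried an additional copy. The libraries analysed were 3 of ap > Yki+NelfAi, 3 of ap > Yki, 2 of ap > NelfAi (replicates 1 and 2) and 2 of ap > GFP (replicates 1 and 3). The driver is active in the dorsal compartment only, whereas whole discs were pooled for RNA, so each value is a mean over expressing and other cells. In such bulk samples fewer cells of a type and less RNA per cell cannot be told apart. The deposited labels describe ap > Yki+NelfAi as neoplastic overgrowth, ap > Yki as mild hyperplasia, and the other discs as wild type tissue.

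Before S phase, the origin recognition complex marks replication origins, and Cdc6 and Dup (the fly Cdt1) load the Mcm2 to Mcm7 helicase on them, which Geminin keeps from happening again after origins have fired. Cdc45 and the GINS complex then turn the loaded helicase on, and polymerases alpha, delta and epsilon copy the DNA with PCNA as their sliding clamp, replication factor C as its loader and RPA covering the single strands. Many of these genes are targets of the E2F and DP transcription factors, and in wing discs they are used as readouts of cells that enter S phase.

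The estimated changes of most of the replication machinery between the tumorous and the control discs were small. Of the 40 replication genes, 34 lay within 1.5-fold of the control in their estimated change, against 4827 of all 7858 genes tested. Calls required a change of 1.5-fold or more and, by limma, an adjusted p (Benjamini-Hochberg) under 0.05. By this rule 4 of the 40 replication genes were called, all of them higher in the tumorous discs: RpA-70, DNApol-iota, RnrL and RfC4. That is 10% of the replication genes, whereas 22.1% of all genes tested were called in this comparison, 10% as higher and 12.1% as lower. No replication gene was called lower. The median log2 fold change of the replication genes was 0.06, with quartiles at -0.21 and 0.45, and that of all genes tested was 0.03, with quartiles at -0.44 and 0.44.

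**Figure D1:**
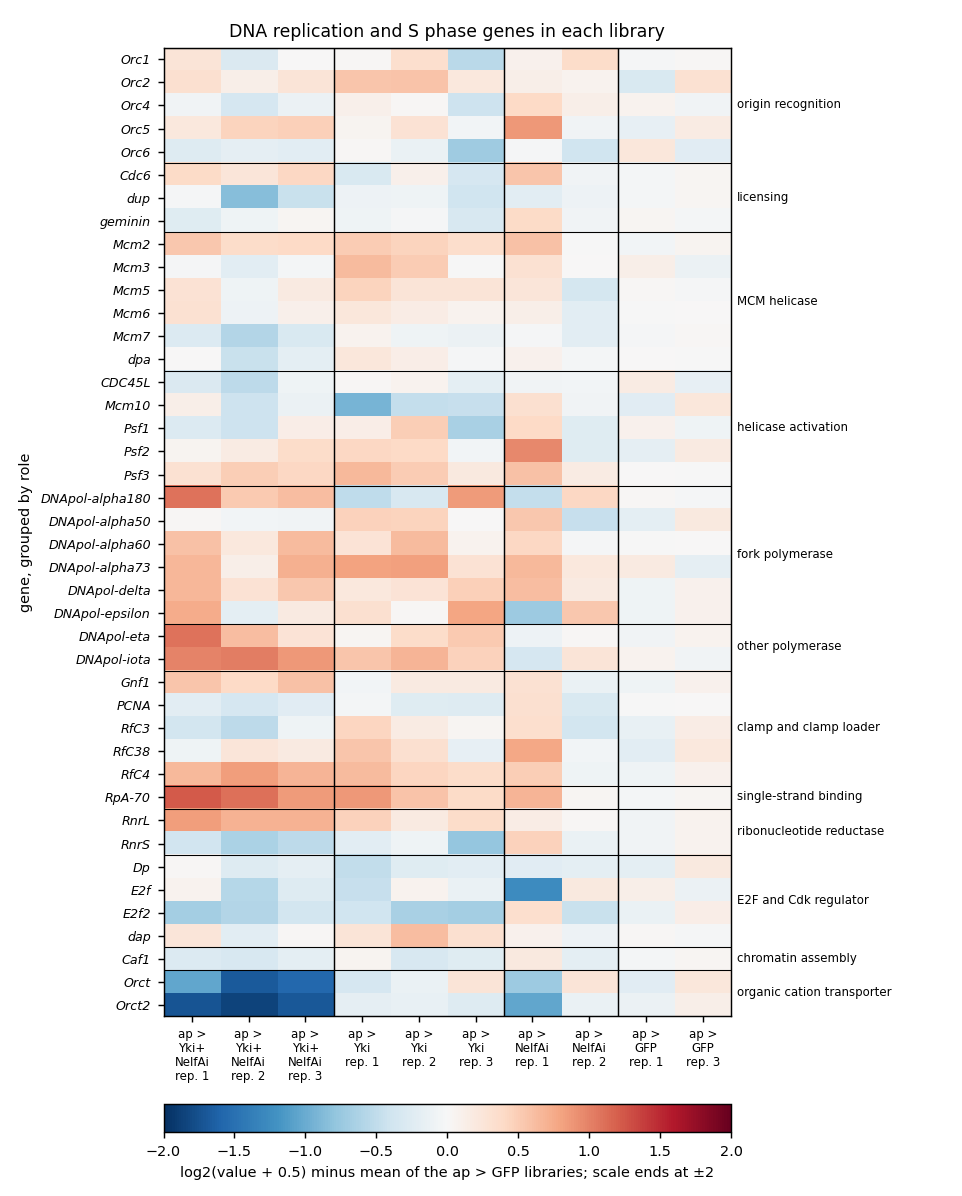
Level of each of the 42 genes (rows, grouped by role) in each of the 10 libraries (columns), as log2(value + 0.5) minus the mean of the 2 ap > GFP libraries, with red for higher and blue for lower. RpA-70, RnrL, RfC4 and DNApol-iota are red in the 3 tumorous libraries, Orct and Orct2 are blue there, and the origin, licensing and MCM genes are pale in most libraries.

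The libraries held 9810347 to 13065642 reads on genes in ap > Yki+NelfAi, 12305413 to 12637389 in ap > Yki, 6990931 and 8153879 in ap > NelfAi, and 8384594 and 9746830 in ap > GFP. Values are the reads on a gene divided by a factor of its library, and 1 read is worth 0.0464 to 0.0839. Nelf-A was at 41.2% to 44.8% of the control mean in the tumorous discs and at 29.8% in ap > NelfAi replicate 1, but at 86.2% in the library labelled ap > NelfAi replicate 2, which is within the 73.6% to 103% of the ap > Yki libraries. Libraries also differed in how values depended on transcript length, with a Spearman rho of -0.66 across genes in ap > NelfAi replicate 1, 0.49 in the library labelled ap > NelfAi replicate 2, 0.47 in ap > Yki replicate 3, and -0.21 to 0.29 in the others. Several of the 7 marker lists for tissue other than wing disc moved with genotype. The summed value of 5 muscle genes was 15.5 to 27.5 in ap > Yki+NelfAi, 28.2 to 47.5 in ap > Yki, 126 to 600 in ap > NelfAi and 145 to 299 in ap > GFP, that of 5 salivary gland genes 0.379 to 3.84 in ap > Yki+NelfAi against 63.7 to 308 in ap > GFP, and that of 4 adepithelial myoblast genes 14.0 to 17.0 in ap > Yki+NelfAi against 47.2 to 53.1 in ap > GFP. The sum of 5 hemocyte genes ran the other way in ap > Yki, with 13.2 to 22.3 in ap > Yki+NelfAi, 21.7 to 60.3 in ap > Yki, 21.7 to 29.9 in ap > NelfAi and 11.6 to 14.8 in ap > GFP. That of 5 fat body genes varied within genotypes, with 12.6 to 45.8 in ap > Yki+NelfAi, 14.95 to 166 in ap > Yki, 43.1 to 258 in ap > NelfAi and 30.8 to 36.5 in ap > GFP, and the lists for trachea and for haltere or leg disc overlapped between the tumorous and the control discs. Their part in the differences below was not tested. The summed value of 8 wing disc genes also overlapped, with 473 to 675 in ap > Yki+NelfAi, 395 to 685 in ap > Yki, 282 in ap > NelfAi replicate 1, the lowest of the 10 libraries, 693 in the library labelled ap > NelfAi replicate 2, and 573 to 629 in ap > GFP.

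RpA-70, the large subunit of the RPA complex that covers single-stranded DNA at replication forks and at sites of damage, changed most among the replication genes. Its value was 148.3, 136 and 114 in the ap > Yki+NelfAi libraries, 115, 93.2 and 81.8 in ap > Yki, 101 in ap > NelfAi replicate 1, 64.4 in the library labelled ap > NelfAi replicate 2, and 61.4 and 64.4 in ap > GFP. Every tumorous library and every ap > Yki library was above both control libraries, and the lowest tumorous library was just under the highest ap > Yki one. The mean was 133 ± 17.1 in ap > Yki+NelfAi (SD, n = 3) and 62.9 ± 2.08 in ap > GFP (SD, n = 2), and the log2 fold change was 1.06 (SE 0.24, limma adjusted p = 0.0115), a fold of 2.09 with a 95% interval of 1.45 to 3.02. With Yki alone the log2 fold change over ap > GFP was 0.60 (limma adjusted p = 0.22), which is not a call.

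DNApol-iota encodes a translesion polymerase, an enzyme that copies damaged templates and is not part of the replication fork's core. Its value was 29.4, 30.0 and 26.8 in ap > Yki+NelfAi, 21.7, 23.5 and 20.2 in ap > Yki, 11.4 in ap > NelfAi replicate 1, 17.4 in the library labelled ap > NelfAi replicate 2, and 15.2 and 13.9 in ap > GFP. The tumorous libraries were above all other libraries, and the ap > Yki libraries were above all ap > NelfAi and ap > GFP libraries. In the tumorous discs the log2 fold change was 0.96 over ap > GFP (SE 0.20, limma adjusted p = 0.0094) and 1.00 against ap > NelfAi (limma adjusted p = 0.0092). Against ap > Yki it was 0.39 with a 95% interval of -0.02 to 0.80 and was not called. In the annotation this gene shares 758 bases with Ada2b, which lies on the opposite strand, and 456 bases with an antisense RNA, and as the counting is not stated to use strand, reads of these genes cannot be told apart over those stretches. RpA-70, RnrL and RfC4 overlap no other annotated gene. Other members have this limit too, with longer shared stretches for some. Among them are Cdc6 with Zasp66 (2561 bases), CDC45L with su(w[a]) (2266) and Mcm7 with an antisense RNA (2205). DNApol-alpha50 shares 2092 bases with CG7083 on the same strand, and Psf3 shares 831 with CG17841. DNApol-eta, a polymerase related to DNApol-iota that copies past ultraviolet damage, had values of 20.0, 14.3 and 11.2 in ap > Yki+NelfAi, 9.43, 11.97 and 13.3 in ap > Yki, 8.47 in ap > NelfAi replicate 1, 9.31 in the library labelled ap > NelfAi replicate 2, and 8.69 and 9.66 in ap > GFP. All 3 tumorous libraries were above both controls, but they were spread widely, and the log2 fold change of 0.66 was not called (limma adjusted p = 0.096). With the trend of values with transcript length removed from each library it was 0.62 and was called (limma adjusted p = 0.0466).

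Ribonucleotide reductase, which makes the deoxyribonucleotides for DNA synthesis, is built from a large subunit, RnrL, and a small one, RnrS. RnrL had values of 186, 168 and 168 in ap > Yki+NelfAi, 144, 118 and 134 in ap > Yki, 115 in ap > NelfAi replicate 1, 105 in the library labelled ap > NelfAi replicate 2, and 99.0 and 109 in ap > GFP. RnrL was higher in the tumorous libraries than in all others, with little spread among them. RnrL averaged 174 ± 10.1 in ap > Yki+NelfAi (SD, n = 3) and 104 ± 6.86 in ap > GFP (SD, n = 2), a log2 fold change of 0.74 (SE 0.16, limma adjusted p = 0.0110), and it was called against ap > NelfAi too, with a log2 fold change of 0.65 (limma adjusted p = 0.0225). That call against ap > NelfAi was lost without any 1 of the 3 tumorous libraries, and with the length trend removed the log2 fold change was 0.582, just under 1.5-fold (limma adjusted p = 0.0106). Its change from ap > Yki was 0.40 on the log2 scale, with a 95% interval of 0.08 to 0.73, and did not pass the test (limma adjusted p = 0.086). RnrS did not follow RnrL. Its value was 166, 140 and 151 in ap > Yki+NelfAi, 188, 205 and 127 in ap > Yki, 299 in ap > NelfAi replicate 1, 198 in the library labelled ap > NelfAi replicate 2, and 207 and 228 in ap > GFP. All tumorous libraries were below both control libraries, but the log2 fold change of -0.51 had a 95% interval of -1.07 to 0.05 and was not called (limma adjusted p = 0.18).

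The ratio of RnrL to RnrS within a library does not depend on how libraries are scaled. This pair was chosen after its values had been seen, so the ratio is given as a description with no test. Its log2 value was 0.16, 0.26 and 0.16 in ap > Yki+NelfAi, -0.39, -0.80 and 0.08 in ap > Yki, -1.37 in ap > NelfAi replicate 1, -0.91 in the library labelled ap > NelfAi replicate 2, and -1.06 and -1.07 in ap > GFP. RnrL had more reads than RnrS in all 3 tumorous libraries and in ap > Yki replicate 3, and fewer in the other 6 libraries. Once the dependence on transcript length had been removed from each library, the log2 ratio was 0.08, 0.32 and 0.15 in ap > Yki+NelfAi, -0.32, -0.79 and -0.06 in ap > Yki, -1.08 and -1.07 in the pair labelled ap > NelfAi, and -1.12 and -1.09 in ap > GFP. Per kilobase of transcript, RnrL was at 0.690 to 0.738 of the level of RnrS in ap > Yki+NelfAi and at 0.295 to 0.296 in ap > GFP.

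**Figure D2:**
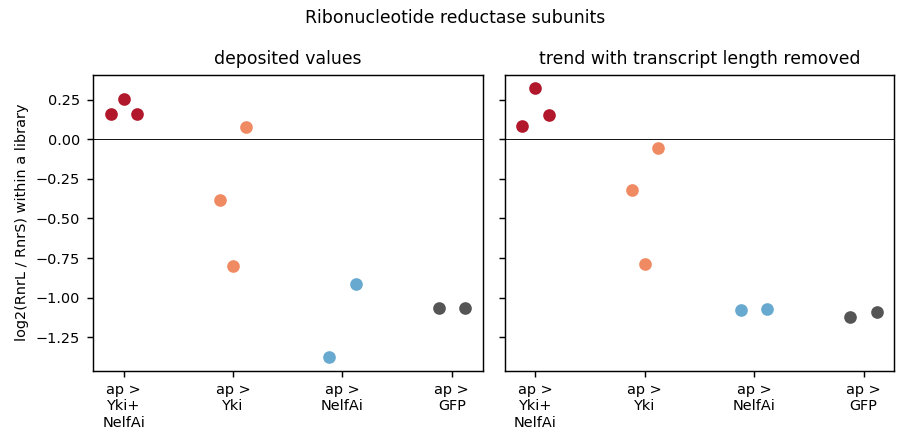
Log2 ratio of RnrL to RnrS in each library (points), by genotype, from the deposited values (left) and after removal of the dependence on transcript length (right). In both panels the 3 tumorous libraries are above 0 and the 2 ap > GFP libraries are near -1.1, with the ap > Yki libraries spread between them.

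Of the 5 genes of the sliding clamp and its loader, RfC4 alone was called. RfC4, a small subunit of replication factor C, had values of 111, 125 and 112 in ap > Yki+NelfAi, 109, 95.03 and 91.1 in ap > Yki, 99.2 in ap > NelfAi replicate 1, 66.1 in the library labelled ap > NelfAi replicate 2, and 66.4 and 74.2 in ap > GFP. All tumorous libraries were above all others. RfC4 had a log2 fold change over ap > GFP of 0.72 (SE 0.20, limma adjusted p = 0.0330). RfC3, another small subunit, had values of 20.3, 18.3 and 24.8 in ap > Yki+NelfAi, 35.8, 29.9 and 27.3 in ap > Yki, 33.4 in ap > NelfAi replicate 1, 20.5 in the library labelled ap > NelfAi replicate 2, and 23.7 and 29.5 in ap > GFP. The tumorous libraries overlapped with the controls and were below all ap > Yki libraries, and the log2 fold change over ap > GFP was -0.33 (95% interval -0.89 to 0.23). Gnf1, the large subunit of the loader, had a log2 fold change of 0.51 (95% interval 0.09 to 0.94, limma adjusted p = 0.081), short of both criteria of a call. PCNA, the clamp itself and a standard marker of S phase, had values of 101, 92.7 and 100.01 in ap > Yki+NelfAi, 113, 98.6 and 97.2 in ap > Yki, 145 in ap > NelfAi replicate 1, 93.9 in the library labelled ap > NelfAi replicate 2, and 116 and 117 in ap > GFP. PCNA was a little lower in the tumorous libraries than in both controls, with a log2 fold change of -0.25 and a 95% interval of -0.71 to 0.20.

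**Figure D3:**
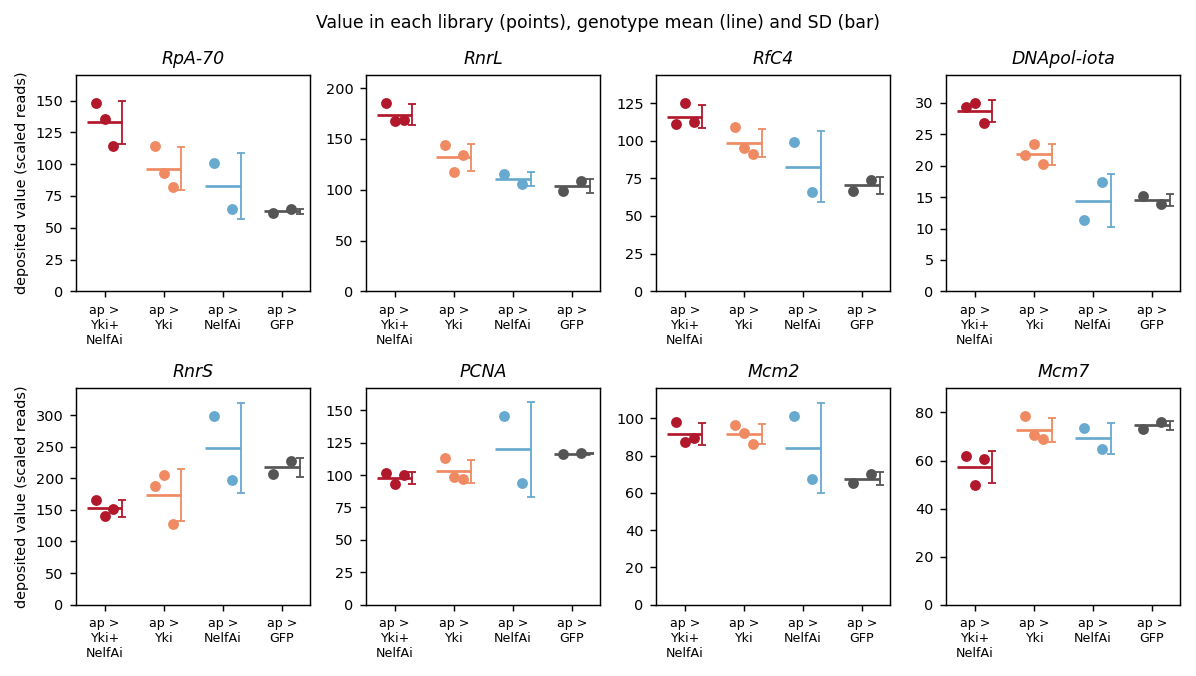
Deposited value (scaled reads, vertical axes from 0) of 8 replication genes in each library (points), with the genotype mean (line) and SD (bar), for ap > Yki+NelfAi, ap > Yki, ap > NelfAi and ap > GFP. RpA-70, RnrL, RfC4 and DNApol-iota are higher in the tumorous libraries than in the controls, RnrS, PCNA and Mcm7 are not, and Mcm2 is higher in ap > Yki+NelfAi and ap > Yki alike without being called.

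None of the 6 subunits of the MCM helicase was called in any of the 6 comparisons. In the tumorous discs against the control discs their log2 fold changes ran from -0.38 for Mcm7 to 0.43 for Mcm2, with a median of 0.00, 3 being positive and 3 negative. Mcm2 had values of 98.2, 87.3 and 89.4 in ap > Yki+NelfAi, 96.4, 92.3 and 86.2 in ap > Yki, 101 in ap > NelfAi replicate 1, 67.2 in the library labelled ap > NelfAi replicate 2, and 65.1 and 70.2 in ap > GFP. It was above both controls in every library with Yki, at a log2 fold change of 0.43 (95% interval -0.01 to 0.88, limma adjusted p = 0.15) in the tumorous discs. Mcm7 had values of 61.8, 49.7 and 60.6 in ap > Yki+NelfAi, 78.5, 70.6 and 69.0 in ap > Yki, 73.7 in ap > NelfAi replicate 1, 64.7 in the library labelled ap > NelfAi replicate 2, and 73.3 and 76.0 in ap > GFP. The tumorous libraries were below all others, at a log2 fold change of -0.38 (95% interval -0.77 to 0.00) against ap > GFP. For Mcm6 the 95% interval, -0.31 to 0.51, lay within 1.5-fold in either direction. Of the helicase subunits, 5 of 6 had a positive log2 fold change when ap > Yki was set against ap > GFP (median 0.23), and all 6 had a negative one in ap > Yki+NelfAi against ap > Yki, from -0.46 for Mcm3 to about 0 for Mcm2. These comparisons share the ap > Yki libraries.

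The proteins that place and start the helicase were not called either. The 5 genes of the origin recognition complex had log2 fold changes of -0.22 for Orc6 to 0.37 for Orc5 in ap > Yki+NelfAi against ap > GFP. Orc5 had values of 13.4, 15.9 and 16.4 in ap > Yki+NelfAi, 12.02, 14.2 and 11.1 in ap > Yki, 21.6 in ap > NelfAi replicate 1, 11.0 in the library labelled ap > NelfAi replicate 2, and 10.2 and 13.1 in ap > GFP. Orc6 had 6.45, 6.78 and 6.63 in ap > Yki+NelfAi, 7.92, 7.08 and 4.55 in ap > Yki, 7.63 in ap > NelfAi replicate 1, 5.82 in the library labelled ap > NelfAi replicate 2, and 9.21 and 6.58 in ap > GFP. Orc5 was above the controls in every tumorous library, and Orc6 overlapped. Of the licensing factors, dup had values of 48.4, 27.1 and 36.1 in ap > Yki+NelfAi, 45.6, 46.4 and 37.3 in ap > Yki, 42.5 in ap > NelfAi replicate 1, 45.8 in the library labelled ap > NelfAi replicate 2, and 48.0 and 50.2 in ap > GFP. The wide spread of the tumorous libraries gave a log2 fold change of -0.44 with a 95% interval of -0.97 to 0.10. Its inhibitor geminin had values of 75.2, 84.3 and 92.1 in ap > Yki+NelfAi, 84.0, 87.9 and 71.8 in ap > Yki, 117 in ap > NelfAi replicate 1, 85.1 in the library labelled ap > NelfAi replicate 2, and 91.7 and 87.3 in ap > GFP. The tumorous and control libraries overlapped, and the 95% interval of the log2 fold change, -0.53 to 0.34, lay within 1.5-fold. Cdc6 had 8.77, 7.88 and 8.98 in ap > Yki+NelfAi, 5.28, 7.17 and 5.16 in ap > Yki, 9.98 in ap > NelfAi replicate 1, 6.31 in the library labelled ap > NelfAi replicate 2, and 6.39 and 6.85 in ap > GFP. The tumorous libraries were above all ap > Yki and ap > GFP libraries, with log2 fold changes of 0.34 over ap > GFP and 0.52 over ap > Yki (limma adjusted p = 0.34 and 0.12). Among the factors that turn the helicase on, CDC45L had values of 12.4, 10.4 and 14.3 in ap > Yki+NelfAi, 15.4, 16.0 and 13.3 in ap > Yki, 14.4 in ap > NelfAi replicate 1, 14.6 in the library labelled ap > NelfAi replicate 2, and 17.2 and 13.5 in ap > GFP. The GINS subunit Psf3 had 10.1, 11.6 and 10.9 in ap > Yki+NelfAi, 13.0, 11.6 and 9.29 in ap > Yki, 12.3 in ap > NelfAi replicate 1, 9.06 in the library labelled ap > NelfAi replicate 2, and 8.12 and 8.04 in ap > GFP. CDC45L overlapped between the tumorous and control discs, at a log2 fold change of -0.30, and Psf3, at 0.40, did not.

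None of the 6 polymerase genes of the fork was called. In the tumorous discs 5 of the 6 had a positive log2 fold change, with a median of 0.49, and in ap > Yki all 6 did, with a median of 0.32. DNApol-alpha180, the catalytic subunit of polymerase alpha, had values of 52.6, 35.7 and 37.9 in ap > Yki+NelfAi, 17.3, 19.6 and 44.6 in ap > Yki, 17.6 in ap > NelfAi replicate 1, 32.9 in the library labelled ap > NelfAi replicate 2, and 25.1 and 24.1 in ap > GFP. The tumorous libraries were above the controls, but ap > Yki replicate 3 was as high as they were. The log2 fold change over ap > GFP was 0.74 with a 95% interval of -0.18 to 1.66 (limma adjusted p = 0.23). Its transcript of 4.62 kb is long, and with the length trend of each library removed its values were 44.6, 37.4 and 37.0 in ap > Yki+NelfAi, 19.1, 20.3 and 35.9 in ap > Yki, 28.0 and 26.2 in the pair labelled ap > NelfAi, and 23.2 and 23.3 in ap > GFP. On those values the log2 fold change was 0.75 and it was called (limma adjusted p = 0.0312), as it was on the deposited values in a fit of ap > Yki+NelfAi and ap > GFP alone (limma adjusted p = 0.0164). The lowest of the group was the primase subunit DNApol-alpha50, with values of 8.02, 7.54 and 7.43 in ap > Yki+NelfAi, 10.9, 10.8 and 7.85 in ap > Yki, 11.6 in ap > NelfAi replicate 1, 5.57 in the library labelled ap > NelfAi replicate 2, and 6.78 and 9.07 in ap > GFP. Its log2 fold change over ap > GFP was -0.03. The other 4, which encode the remaining subunits of polymerase alpha and primase and the catalytic subunit of polymerase delta as well as DNApol-epsilon, had log2 fold changes of 0.24 to 0.50, with adjusted p from limma of 0.12 to 0.72.

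The E2F factors and the inhibitor of S phase entry were not called in the tumorous discs. E2f, the activator of S phase genes, had values of 74.2, 47.4 and 59.1 in ap > Yki+NelfAi, 50.8, 74.2 and 64.3 in ap > Yki, 29.1 in ap > NelfAi replicate 1, 80.2 in the library labelled ap > NelfAi replicate 2, and 76.3 and 64.9 in ap > GFP. The genotypes overlapped, and the largest gap was between the ap > NelfAi libraries, which narrowed to 47.3 and 62.9 once the length trend was removed. Its log2 fold change in the tumorous discs was -0.25 with a 95% interval of -1.11 to 0.62, too wide to tell a fall of 2-fold from a rise of 1.5-fold. E2f2, the repressor E2F, had values of 13.7, 14.6 and 17.0 in ap > Yki+NelfAi, 16.6, 14.0 and 13.7 in ap > Yki, 28.0 in ap > NelfAi replicate 1, 16.2 in the library labelled ap > NelfAi replicate 2, and 20.2 and 24.2 in ap > GFP. All libraries with Yki were below both controls, at log2 fold changes of -0.54 in ap > Yki+NelfAi and -0.57 in ap > Yki (limma adjusted p = 0.15 and 0.26), which share the controls. With the length trend removed, E2f2 was called lower in the tumorous discs at a log2 fold change of -0.59 (limma adjusted p = 0.0386). Dp, their common partner, had values of 133, 110 and 115 in ap > Yki+NelfAi, 92.8, 111 and 113 in ap > Yki, 112 in ap > NelfAi replicate 1, 114 in the library labelled ap > NelfAi replicate 2, and 114 and 150 in ap > GFP. Dap, the inhibitor of the cyclin E kinase, had 60.8, 44.2 and 51.7 in ap > Yki+NelfAi, 61.3, 78.4 and 64.0 in ap > Yki, 54.4 in ap > NelfAi replicate 1, 47.8 in the library labelled ap > NelfAi replicate 2, and 51.9 and 50.4 in ap > GFP. For Dp and dap the tumorous and control libraries overlapped and the 95% intervals, -0.56 to 0.28 and -0.42 to 0.46, lay within 1.5-fold. Caf1, a histone chaperone shared by several chromatin complexes, had 253, 247 and 269 in ap > Yki+NelfAi, 319, 247 and 259 in ap > Yki, 353 in ap > NelfAi replicate 1, 269 in the library labelled ap > NelfAi replicate 2, and 300 and 316 in ap > GFP. Its tumorous libraries were below the controls, at a log2 fold change of -0.26 that was not called.

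**Figure D4:**
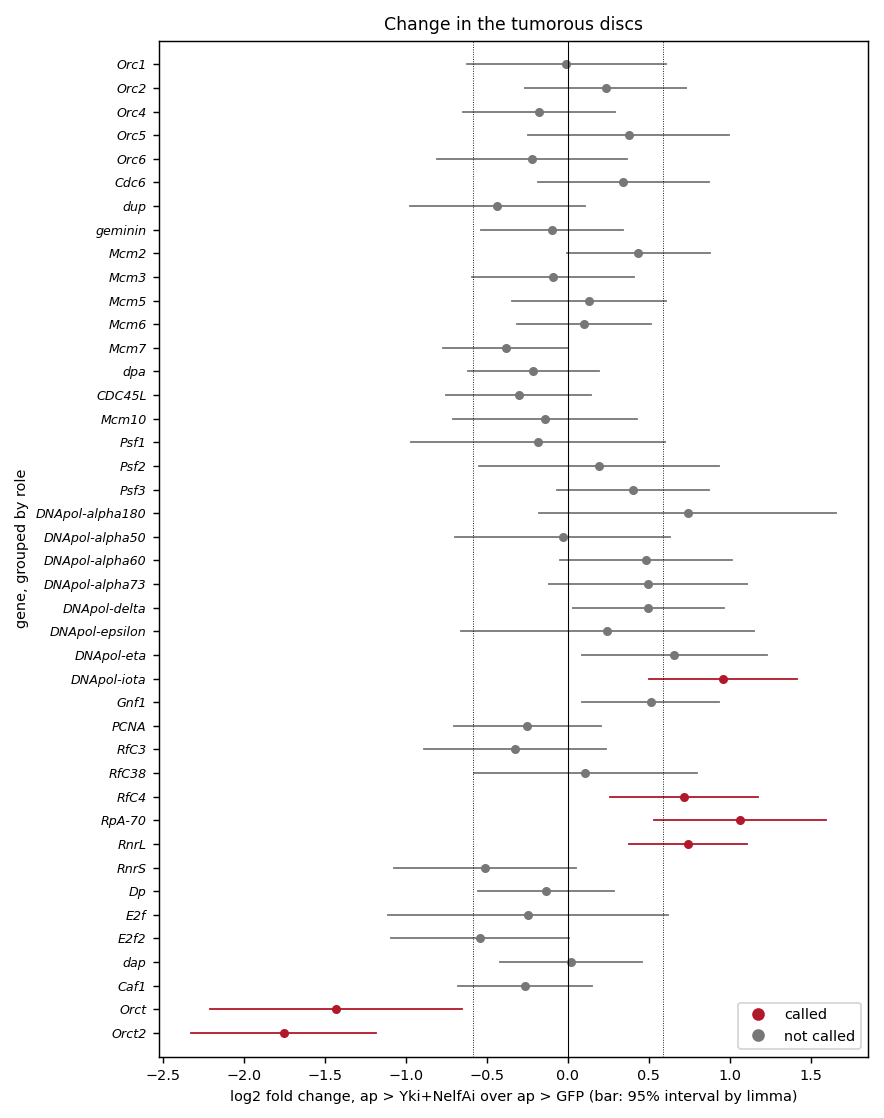
Log2 fold change of each of the 42 genes in ap > Yki+NelfAi over ap > GFP (points) with its 95% interval by limma (bars), genes grouped by role from top to bottom. Dotted lines mark a change of 1.5-fold, and the 6 called genes are red: RpA-70 at 1.06, DNApol-iota at 0.96, RnrL at 0.74, RfC4 at 0.72, Orct at -1.43 and Orct2 at -1.75.

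The intervals set how firmly the absence of a call can be read. In ap > Yki+NelfAi against ap > GFP the 95% interval lay within 1.5-fold in either direction for 4 of the 40 replication genes (Dp, Mcm6, dap and geminin), and it included a rise of 2-fold for 9. Of the replication genes, 13 were higher in every tumorous library than in both controls and 5 were lower in every one, 18 together, whereas 64.3% of all genes tested had no overlap between these genotypes, 33.3% above and 31.0% below.

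The calls depended on having both control libraries, and calls over all genes tested also fell in the fits with 1 control library. With either ap > GFP replicate 1 or ap > GFP replicate 3 left out, no replication gene was called and Orct2 was the only call left of the 6, though the log2 fold changes of RpA-70, DNApol-iota and RnrL stayed positive under every library left out. Those 3 genes were called in each of the other 8 cases in which 1 library was left out, with adjusted p from limma of up to 0.089, 0.091 and 0.11 over the 10. RfC4 was called in 4 of the 10, and was lost without either control library, without ap > Yki replicate 2 and without any of the 3 tumorous libraries.

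Orct and Orct2, the organic cation transporters, had the largest changes of the 42 genes. Orct2 had values of 5.26, 4.80 and 5.39 in ap > Yki+NelfAi, 16.3, 16.6 and 15.4 in ap > Yki, 8.72 in ap > NelfAi replicate 1, 16.8 in the library labelled ap > NelfAi replicate 2, and 17.1 and 20.1 in ap > GFP. Orct had 2.32, 1.30 and 1.45 in ap > Yki+NelfAi, 4.10, 4.80 and 6.46 in ap > Yki, 3.02 in ap > NelfAi replicate 1, 6.43 in the library labelled ap > NelfAi replicate 2, and 4.48 and 6.26 in ap > GFP. For both genes the tumorous libraries were below all others. The log2 fold changes of Orct2 and Orct were -1.75 and -1.43 against ap > GFP, -1.55 and -1.37 against ap > Yki, and -1.16 and -1.20 against ap > NelfAi, all called (limma adjusted p = 0.0013 and 0.0170, 0.0019 and 0.0155, and 0.0127 and 0.0414). Orct rested on 19 to 49 reads a library in the tumorous discs, and with 1 library left out its calls held in 6 of the 10 cases against ap > GFP, in 8 against ap > Yki and in 3 against ap > NelfAi, while those of Orct2 held in all 10 in each comparison. The genes are tandem neighbours on chromosome 3R of dm6 (Orct2 at 24273029 to 24275728 and Orct at 24276260 to 24278792, both on the plus strand), with 531 bases between them.

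No member was called with Yki alone. In ap > Yki against ap > GFP, 0 of the 42 genes were called by limma, against 4.05% of all genes tested. On the recovered reads edgeR and DESeq2 called 0 as well, against 3.42% and 7.79% of all genes tested. By limma 6 genes, beside 17.8% of all genes tested, had an unadjusted p under 0.05: RpA-70, DNApol-iota, RfC4 and DNApol-alpha73 with positive log2 fold changes of 0.48 to 0.64, and E2f2 and Mcm10 with -0.57 and -0.62. The median of the replication genes was 0.13 on the log2 scale, beside -0.01 for all genes tested, and 12 of the 40 were above both controls in every ap > Yki library and 6 below, while the groups did not overlap for 41.1% of all genes, 21.8% being above and 19.3% below. Mcm10, which helps to start the fork, had values of 6.79, 9.40 and 9.52 in ap > Yki against 11.3 and 15.8 in ap > GFP, the lowest log2 fold change of the replication genes in this comparison (-0.62, limma adjusted p = 0.24). The 95% interval included a rise of 1.5-fold for 23 of the 40 genes and of 2-fold for 4.

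In ap > NelfAi against ap > GFP, 0 of the 42 genes were called by limma (0.0764% of all genes tested were), and 0 had an unadjusted p under 0.05 (3.83% of all genes did). The edgeR and DESeq2 fits called 0 of the 42, against 0.0127% and 0.255% of all genes tested. The ap > NelfAi libraries stood apart from each other here. Marker genes moved with this split, with summed values of 282 for wing disc, 258 for fat body and 600 for muscle in ap > NelfAi replicate 1, and of 693, 43.1 and 126 in the library labelled ap > NelfAi replicate 2, and their part in it was not tested. Of the 40 replication genes, 31 were above their own mean over the 10 libraries in ap > NelfAi replicate 1 and 9 in the library labelled ap > NelfAi replicate 2. The highest value of the 10 libraries fell in ap > NelfAi replicate 1 for 13 of the 40 (32.5%), and for 22.2% of all genes tested. The median deviation of the replication genes from their own means was 0.15 on the log2 scale in ap > NelfAi replicate 1, and 0.19 once the length trend had been removed, against -0.18 and -0.12 in the library labelled ap > NelfAi replicate 2. For all genes tested the median deviation, with the length trend left in, was -0.007 and -0.018 in these libraries. With the library labelled ap > NelfAi replicate 2 left out, the log2 fold change in ap > NelfAi against ap > GFP was -1.26 for E2f and -1.05 for Orct2. Calls over all genes tested rose in that fit, in which the lone ap > NelfAi library was assumed to vary as the other genotypes did.

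Setting ap > Yki+NelfAi against ap > Yki compares Yki with and without RNAi against Nelf-A, but not at equal yki RNA. The value of yki was 8143, 11377 and 9925 in ap > Yki+NelfAi and 2637, 3396 and 4007 in ap > Yki. What the RNAi adds and what more yki RNA adds cannot be told apart here, nor in the interaction below. Of the 42 genes 2 were called, against 17.4% of all genes tested, and these were Orct and Orct2, both lower, as 10.2% of all genes were. That left 0 of the 40 replication genes by limma, edgeR and DESeq2 alike. Over all genes tested edgeR and DESeq2 called 16.6% and 22.2%. An unadjusted p under 0.05 by limma was reached by 33.1% of all genes tested and by 5 replication genes, RnrL, Gnf1 and Cdc6 with log2 fold changes of 0.40 to 0.52 and Mcm3 and RfC3 with -0.46 and -0.54. The median of the replication genes was -0.06 on the log2 scale, beside 0.02 for all genes tested. For 10 of the 40, PCNA, geminin and Mcm2 among them, the 95% interval lay within 1.5-fold, and it included a rise of 2-fold for 1. Without ap > Yki replicate 3, DNApol-alpha180 was called higher and Mcm3 lower, which made 4 members. All genes tested gave 1328 calls in that fit, beside 1365 with all 10 libraries. Without ap > Yki+NelfAi replicate 2 or 3, Orct2 was the only member called. Calls over all genes tested fell in those fits too, to 786 and 852. Against ap > NelfAi, 4 of the 42 genes were called in ap > Yki+NelfAi (17.5% of all genes tested were, 8.36% as higher and 9.11% as lower), DNApol-iota and RnrL as higher and Orct and Orct2 as lower. The members called changed with either ap > NelfAi library left out, and calls over all genes tested rose in both fits. RpA-70, RfC4 and Gnf1 came in without replicate 1. Without the library labelled replicate 2, E2f came in as higher and E2f2, RnrS and Psf2 as lower, and Orct was lost. Each of these fits rests on a lone ap > NelfAi library. In a fit of ap > Yki+NelfAi and ap > NelfAi alone limma called 0 of the 42 (7.02% of all genes tested), with 6 at an unadjusted p under 0.05. The interaction of Yki and NelfAi asks whether the joint change differs from the sum of the separate ones. It called 0 of the 42 by limma, edgeR and DESeq2, against 1.26%, 1.34% and 5.51% of all genes tested. By limma it had 2 members, Orct and Orct2, at an unadjusted p under 0.05, beside 14.8% of all genes. Without ap > NelfAi replicate 1 it called Orct2.

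**Figure D5:**
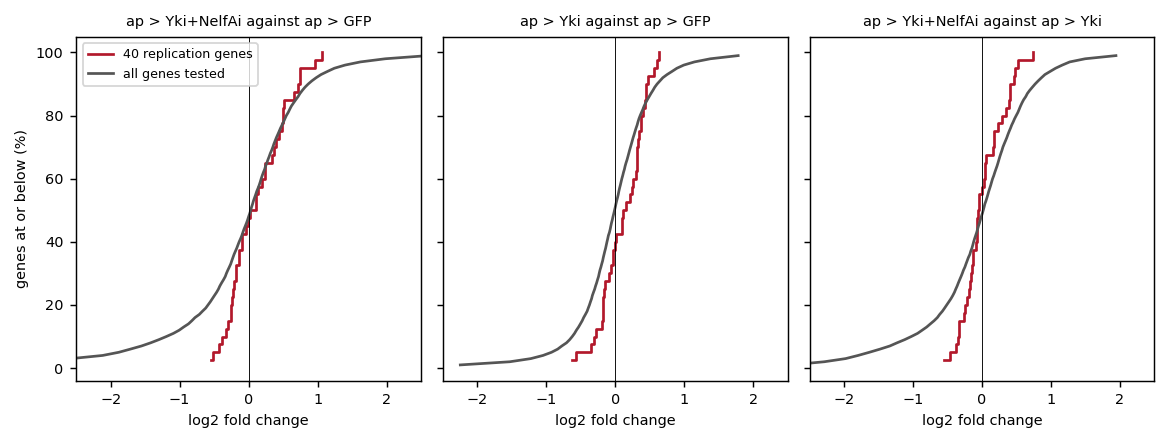
Share of genes (vertical axis, percent) at or below a log2 fold change (horizontal axis), for the 40 replication genes (red steps) and all 7858 genes tested (grey line), in 3 comparisons. From left to right the medians are 0.06 against 0.03, 0.13 against -0.01 and -0.06 against 0.02. The ranges of the lines are not compared, because a range grows with the number of genes.

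Levels between genes were compared per kilobase of the longest annotated transcript, which 41 of the 42 genes have. DNApol-epsilon matched more than 1 gene of the annotation and was left out. In the tumorous discs the most abundant were Caf1 at 140, RfC4 at 103, RnrS at 95.7, PCNA at 91.6 and geminin at 79.0 scaled reads per kilobase, and in the control discs Caf1 at 168, RnrS at 136, PCNA at 109, geminin at 84.3 and RfC4 at 62.4. Among replication genes Cdc6 was the lowest in both, at 3.44 and 2.67. The MCM subunits, which act as a ring of equal parts, spanned 2.76-fold in ap > Yki+NelfAi and 2.97-fold in ap > GFP, from Mcm3 as the lowest to dpa, which encodes Mcm4, as the highest in both. The origin recognition genes spanned 4.76-fold and 5.41-fold, from Orc1 to Orc4.

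The tumorous libraries were not alike for these genes. The replication genes in ap > Yki+NelfAi replicate 2 had a median deviation of -0.15 from their own means on the log2 scale, against 0.15 in replicate 1 and 0.03 in replicate 3, and 9 of the 40 (22.5%) had their lowest value of all 10 libraries there, as did 8.26% of all genes tested. For all genes tested the median deviation was 0.01 in replicate 2, 0.03 in replicate 1 and 0.04 in replicate 3. The median Pearson correlation over the 10 libraries was 0.20 across the 780 pairs of replication genes. Over the same 10 libraries, which differ in depth and length trend, the genes most like PCNA were CG8635 (Pearson r of 0.93), CG6660, CG7288, the member Caf1 and CG10340, and those most like E2f were Su(z)12 (0.97), Reps, CG15817, EndoA and Tak1.

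On chromosome 3R of dm6, RpA-70 (8262120 to 8264451, minus strand) and Mcm2 (8264970 to 8267924, plus strand) lie head to head with 518 bases between them. DNApol-iota (8233507 to 8237389, plus strand) lies 24730 bases from RpA-70 on the same arm. RpA-70 and DNApol-iota were called in the tumorous discs and Mcm2 was not.

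A further list of 47 genes of S phase and its checkpoints that are not members, from cyclins and their kinases to nucleotide synthesis, Okazaki fragment processing and damage signalling, was set beside them. In the tumorous discs over ap > GFP, 4 of these 47 genes were called higher and 2 lower, which is 12.8% of the list beside 22.1% of all genes tested, and the median log2 fold change was 0.11. The higher ones were p53, the damage-responsive transcription factor, at 1.48 (limma adjusted p = 0.0051), lok, the fly Chk2 kinase that acts upstream of p53, at 1.20 (0.0013), stg, the Cdc25 phosphatase that triggers mitosis, at 0.99 (0.0147), and Ts, thymidylate synthase, at 0.82 (0.0446). The lower ones were grp, the fly Chk1 kinase of the replication checkpoint, at -1.13 (0.0041), and cdc2c, the Cdk2 partner of cyclin E, at -0.79 (0.0217). The checkpoint kinases lok and grp had opposite signs. The lok value was 63.7, 64.4 and 60.4 in ap > Yki+NelfAi, 51.0, 48.1 and 46.8 in ap > Yki, against 28.9 and 25.1 in ap > GFP, whereas that of grp was 36.2, 33.7 and 47.9 in ap > Yki+NelfAi, 73.2, 61.6 and 59.7 in ap > Yki, against 85.0 and 86.1 in ap > GFP. Neither gene overlapped between any of these 3 genotypes. Among all genes tested, 64.3% did not overlap in ap > Yki+NelfAi against ap > GFP and 41.1% in ap > Yki against ap > GFP. The calls of lok and grp in ap > Yki+NelfAi against ap > GFP held in all 10 cases with 1 library left out. The stg and p53 calls held in 9 of the 10, that of cdc2c in 6 and that of Ts in 3. In ap > Yki against ap > GFP lok was called higher (0.84, limma adjusted p = 0.0320) and cdc2c lower (-1.11, limma adjusted p = 0.0182), which is 4.26% of the list beside 4.05% of all genes tested. With 1 library left out, the lok call held in 2 of the 10 cases and that of cdc2c in 7. When ap > Yki+NelfAi was set against ap > Yki, p53 at 1.04 and Caf1-105, a subunit of the chromatin assembly factor, at 0.61 were called higher, and dUTPase, which keeps uracil out of DNA, at -0.96 and grp at -0.73 lower, 8.51% of the list beside 17.4% of all genes. With 1 library left out, these calls held in 6, 2, 5 and 6 of the 10 cases. Against ap > NelfAi, the tumorous discs had stg, lok and p53 called higher and cdc2c and grp lower, 10.6% of the list beside 17.5% of all genes. Of these calls, those of stg, lok and grp held in all 10 cases with 1 library left out, that of p53 in 4 and that of cdc2c in 3. In ap > NelfAi against ap > GFP and for the interaction, 0 of the 47 genes were called by limma, with 0 and 3 at an unadjusted p under 0.05, and edgeR and DESeq2 called 0 as well. In the tumorous discs DESeq2 called 9 of the 47 against ap > GFP and 7 against ap > NelfAi, beside 26.0% and 21.9% of all genes tested. By limma and by edgeR these counts were 6 and 5.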

How the data were processed

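Libraries were assigned to genotypes by their labels, and nothing beyond the methods' wording of biological replicates says how replicates were separated. Reads were aligned by the authors with HISAT and counted on genes, and the deposited values are a signal, namely reads over a scaling factor of each library. All values (100%) came to whole reads within 0.001 read, and those reads were recovered. Entries of reads on no gene, 28.4% to 36.5% of a library, were left out. The authors also deposited 5 tables of comparisons (log2 fold changes, mean levels, p-values and FDR), which were not used. The submitters' processing notes name dm6, bcl2fastq, HISAT, StringTie and edgeR.

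limma (3.58.1, R 4.3.3, variance trend) was fitted to log2(value + 0.5) with genotype as the factor over all 10 libraries. Fold changes are on this scale, which understates changes of low genes. The test took the 7858 genes that reached a value of 1 in 2 or more libraries, and p-values were adjusted over all of them. A call needed an adjusted p under 0.05 and a change of 1.5-fold. The fits were tested on simulated data. Alternatives were RLE scaling, edgeR (4.0.16) and DESeq2 (1.42.0) on the recovered reads, no filter, pseudocounts of 0.1 and 1, a fit of the compared genotypes only, a block for the replicate number, calls without the minimum fold, a length trend removed by lowess (span 0.3), and each library left out. A fit without both ap > NelfAi libraries was added after seeing the data.

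The members and lists were chosen with earlier results of these data known. Values in every library are given for members called in any comparison, for the highest and lowest log2 fold change of each role group in ap > Yki+NelfAi against ap > GFP, and for PCNA, dup, geminin, dap, E2f, E2f2, Dp, RnrL and RnrS. Genes of the further list are named where called. The library values of Mcm10, lok and grp, the Gnf1 estimate and the RnrL to RnrS ratio were chosen after values had been seen. Of the 7987 genes, 98.6% matched the reference (Ensembl, BDGP6, the dm6 assembly), from which coordinates and transcript lengths were taken. No sequence was used here.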

Additional observations from a re-analysis of the deposited data

How the results depend on the processing

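In ap > Yki+NelfAi against ap > GFP the count of called members was 6, with a range of 1 to 6 over the libraries left out (1 without ap > GFP replicate 1 and 1 without ap > GFP replicate 3), 9 with the length trend removed, 7 with only the 2 genotypes compared, and 6 under RLE scaling, edgeR, DESeq2, no filter, either pseudocount and without both ap > NelfAi libraries. Against ap > Yki it was 2, with a range of 1 to 4, and 4 with the length trend removed. Against ap > NelfAi it was 4, with a range of 2 to 7, 0 with only those genotypes compared, and 2 with the replicate block. In ap > NelfAi against ap > GFP it was 0, with a range of 0 to 2, and for the interaction 0, with a range of 0 to 1. The cause of these shifts was not tested, but where libraries were left out there were fewer of them to test. Calls over all genes tested shifted too. In ap > Yki+NelfAi against ap > GFP their share was 22.1%, 30.7% with the length trend removed and 33.7% with only the 2 genotypes compared. There edgeR and DESeq2 gave 21.2% and 26.0%. Against ap > Yki it was 17.4%, and 26.2% with the length trend removed. Against ap > NelfAi it was 17.5%, 7.02% with only those genotypes compared and 11.2% with the replicate block. There DESeq2 and the removal of the length trend each called 5 members, beside 21.9% and 26.6% of all genes tested. Both called RnrS lower, at log2 fold changes of -0.75 (DESeq2 adjusted p = 0.0331) and -0.67 (limma adjusted p = 0.0131). RpA-70 was called higher with the length trend removed (0.66, limma adjusted p = 0.0234).

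Estimates near 0 turned: dap, at 0.02 in ap > Yki+NelfAi against ap > GFP, was -0.016 with the length trend removed and ranged from -0.095 without ap > Yki+NelfAi replicate 1 to 0.132 without ap > Yki+NelfAi replicate 2, and Dp, at -0.14, ranged from -0.334 without ap > GFP replicate 1 to 0.059 without ap > GFP replicate 3. The replicate numbers were not shown to pair libraries, as the deviations of same-numbered libraries correlated at -0.43 to 0.59, and a replicate block called 5 members for ap > Yki+NelfAi against ap > GFP, 2 against ap > Yki and 0 in ap > Yki against ap > GFP. Under the block RfC4 was not called against ap > GFP (limma adjusted p = 0.081), nor RnrL and Orct against ap > NelfAi (limma adjusted p = 0.081 and 0.084). Over all genes the block gave 1091 calls in place of 1736 in ap > Yki+NelfAi against ap > GFP. Psf1, the replication gene with the fewest reads, which are not adjusted for transcript length, rested on as few as 51 in a library.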
